A study of Mus musculus with 2 samples.

Results

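Pericentral hepatocyte barcodes are here the droplets of the dissociated liver that hold transcripts known from hepatocytes around the central vein. The position of the cells in the liver was not measured. They were chosen by count, as barcodes with at least 3 UMIs (unique molecular identifiers, each standing for 1 captured RNA molecule) summed over Glul, Slc1a2, Lgr5, Axin2 and Rhbg, and with more of these than of the periportal genes Sds, Hal, Gls2, Cyp2f2 and Hsd17b13. Each also had at least 200 genes, at most 25% mitochondrial UMIs and no UMI of Ptprc, Ptprb or Dcn, which mark leukocytes, endothelium and stromal cells. The rule kept 92 of 2838 hepatocyte barcodes in the library labelled shBicd2 and 199 of 2601 in the library labelled scramble, 291 of 5439 in all, out of 5843 deposited. The remaining 2746 and 2402 hepatocyte barcodes of the same libraries were the comparison.

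Both libraries came from livers of wild-type C57BL/6J mice that had received an adeno-associated virus (AAV) at 4 weeks of age, carrying either AAV-shBicd2, a short hairpin against the dynein adaptor gene Bicd2, or AAV-scramble, its control. After 3 weeks both groups were given concanavalin A (Con A), a T cell-activating plant lectin used to model acute hepatitis, at 15 mg/kg intravenously, and the livers were taken 6 hours later. There was no group without Con A, so every value describes an inflamed liver. Each group is 1 library of 10x 3' single-cell RNA sequencing, and the promoter that drives the hairpin and the number of animals behind each library are not given in the sources used here.

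Hepatocytes divide their work along the path of the blood, from the portal vein to the central vein. Wnt ligands from the central vein endothelium keep the innermost hepatocytes in a pericentral state, in which Glul (glutamine synthetase) captures the ammonia that urea synthesis upstream has left, and cytochrome P450 enzymes process drugs and bile acid precursors. Periportal hepatocytes make urea, glucose and much of the secreted protein. Slc1a2 is a glutamate importer, Lgr5 a receptor for Wnt-enhancing R-spondins, Axin2 a feedback inhibitor of the Wnt pathway and Rhbg an ammonium transporter.

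The libraries held 5624055 UMIs (shBicd2) and 5086306 UMIs (scramble), and the pericentral barcodes 247930 and 431114 of them. Pericentral barcodes were deeper than the remaining ones, with a median of 2350 against 1513 UMIs in the library labelled shBicd2 and 1877 against 1509 UMIs in the library labelled scramble. Bicd2 itself had 9 UMIs, or 36.4 UMIs per 1000000 (CPM), in pericentral barcodes of the library labelled shBicd2 and 8 UMIs, or 18.6 CPM, in those of the library labelled scramble. The ratio was 1.95, with a 95% counting interval of 0.669 to 5.82. Remaining barcodes had 93 Bicd2 UMIs (18.4 CPM) against 65 (15.0 CPM), a ratio of 1.22 (0.881 to 1.71). The hairpin's target was therefore not detectably lower in the library labelled shBicd2 in either population. EGFP, a reporter transcript in the reference used for counting, was found in 42.4% of pericentral barcodes of the library labelled shBicd2 and 6.53% of those of the library labelled scramble, against 27.9% and 6.16% of remaining barcodes. All counting intervals here cover counting error only.

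The label held for hepatocytes and, in part, for zone. All 8 hepatocyte markers were present in pericentral barcodes, at a summed 7962 CPM (shBicd2) and 5321 CPM (scramble), against 9367 and 5779 CPM in remaining barcodes. Markers of other cells were low, with monocyte/macrophage markers at a summed 36.3 and 13.9 CPM against 71.0 and 44.3 CPM, endothelial markers at 32.3 and 23.2 CPM against 49.7 and 27.2 CPM, and Csf1r, Adgre1, Clec4f and C1qa at 0. Neutrophil markers stood at 178 and 46.4 CPM against 290 and 59.98 CPM, erythroid markers at 242 and 172 CPM against 650 and 312 CPM. Cholangiocyte markers stood at 88.7 and 27.8 CPM against 52.3 and 60.2 CPM, with Epcam, Krt19 and Krt7 at 0. Per barcode, 16.3% of pericentral barcodes (shBicd2) and 38.2% (scramble) held more UMIs of a list of other pericentral genes than of a list of other periportal genes, against 6.05% and 7.62% of remaining barcodes. More UMIs of the periportal list were held by 81.5% and 56.8% of pericentral barcodes, against 90.3% and 87.6% of remaining ones. The lists differ in abundance. In remaining barcodes the other periportal genes summed to 10920 CPM (shBicd2) and 8326 CPM (scramble). The other pericentral genes there summed to 1602 and 1264 CPM, and the pericentral P450 genes to 812 and 782 CPM. These shares therefore cannot show which zone's RNA prevailed in a barcode, and the name stands for enrichment along the axis.

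Glul carried most of the selection. In pericentral barcodes it had 341 UMIs, 1375 CPM, in the library labelled shBicd2 and 928 UMIs, 2153 CPM, in the library labelled scramble, against 79.5 and 133 CPM in remaining barcodes. Slc1a2 had 123 UMIs (496 CPM) and 307 UMIs (712 CPM), against 12.8 and 16.8 CPM. Glul thus gave 72.7% and 73.9% of the selecting UMIs, while Lgr5 had 1 and 9 UMIs, Axin2 2 and 7, and Rhbg 2 and 4. In 43 of 92 (shBicd2) and 74 of 199 (scramble) pericentral barcodes, Glul was the only selecting gene found. The selecting sum had a median of 4 and 5 UMIs and a maximum of 16 and 22. It was exactly 3 in 32 and 40 barcodes, and 41 and 83 barcodes lay just outside with 2. These values were used by the rule and are given as description.

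Barcodes just inside the threshold already differed from those just outside in some genes and not in others. Oat, ornithine aminotransferase, stood at 695 CPM (shBicd2) and 200.2 CPM (scramble) with 3 selecting UMIs, against 262 and 88.8 CPM with 2. Cyp2e1, the ethanol-oxidising cytochrome P450, stood at 391 and 554 CPM against 149.8 and 416 CPM. Arg1, the arginase of the urea cycle, stood at 463 and 224 CPM against 400.0 and 278 CPM, so its order across the threshold was not the same in the libraries.

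The main selecting genes were then checked against each other, each in barcodes chosen without it. Barcodes chosen on Glul alone (at least 3 UMIs) had 23 Slc1a2 UMIs (128 CPM) in the library labelled shBicd2, against 165 (32.1 CPM) in the rest. The ratio was 3.99 (2.46 to 6.19). In the library labelled scramble they had 212 (581 CPM) against 168 (38.2 CPM), a ratio of 15.2 (12.4 to 18.7). Across both libraries Slc1a2 was higher by 3.26 ± 0.28 on the log2 scale (SE, edgeR). Barcodes chosen on the other 4 genes (at least 1 UMI) had Glul at 627 and 1916 CPM against 121 and 221 CPM. The ratios were 5.19 (4.26 to 6.30) and 8.69 (7.80 to 9.68), and the log2 change was 2.63 ± 0.19 (edgeR). Glul and Slc1a2 therefore marked overlapping barcodes in both libraries. The 2 choices used unlike thresholds, and these values describe genes of the rule and are no test of them.

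Outside the 13 genes of the rule, 142 of 11389 genes (1.25%) were higher in pericentral than in remaining barcodes and 80 (0.702%) were lower, by edgeR's quasi-likelihood test with library as a block and a Benjamini-Hochberg adjusted p under 0.05. The test compared 4 summed profiles, 1 per population and library, and leaves 1 residual degree of freedom, so its p-values rest on a spread shared by all genes. Of the called genes, 106 higher and 63 lower ones also had a counting interval wholly on that side in each library, a property that 191 (1.68%) and 146 (1.28%) of all tested genes had. Because the spread is shared over genes, for most genes p does not reflect how far the gene's own ratios in the libraries lay apart. No p measures the spread between mice. Changes below are log2 of pericentral over remaining with the SE, and ratios are of CPM with their 95% counting intervals. CPM in this comparison uses the UMIs outside the 13 genes as its total.

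**Figure D1:**
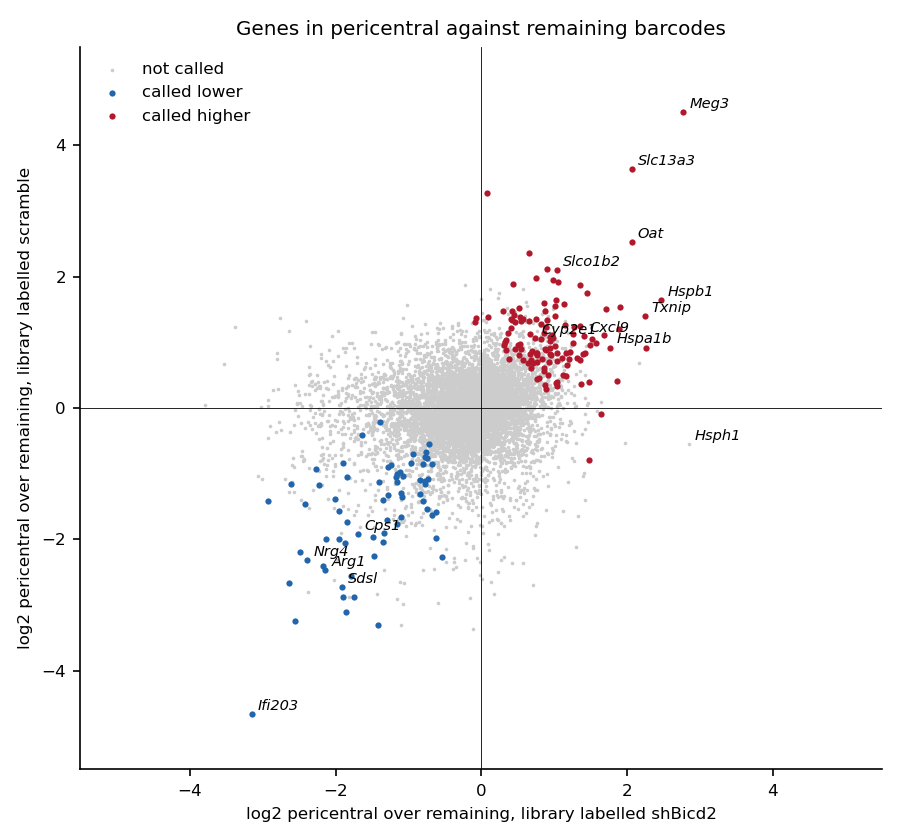
Each point is a gene with at least 50 UMIs in each library, placed by its log2 ratio of pericentral over remaining barcodes in the library labelled shBicd2 (horizontal) and the library labelled scramble (vertical), with 7337 genes drawn and 100 genes listed at 0 in a population left out. Called genes lie mostly in the upper right and lower left, with Meg3 and Slc13a3 at the upper right end and Ifi203 at the lower left.

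Pericentral genes that the rule did not use were higher with it. Oat, which turns ornithine into a glutamate precursor and is a known neighbour of Glul in the innermost layer (chr7:132557478-132576398, minus strand, mm10), had 116 UMIs (469 CPM) against 568 (112 CPM) in the library labelled shBicd2. It had 112 UMIs (261 CPM) against 196 (45.3 CPM) in the library labelled scramble. The ratios of 4.18 (3.40 to 5.11) and 5.75 (4.52 to 7.30) gave a log2 change of 2.32 ± 0.20 (edgeR, adjusted p = 7.5e-29). At least 1 Oat UMI was found in 48.9% and 33.7% of pericentral barcodes, 14.2% and 6.29% of remaining ones, and 18.9% and 5.17% of barcodes with at least 2 Ptprc UMIs, which should lack it. With barcodes thinned to 1000 UMIs, which kept 81 of 92 and 173 of 199 pericentral ones, the pericentral and remaining shares were 30.9% against 8.43% and 27.8% against 3.75%, so the order was the same at equal depth.

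Slc13a3, a sodium-coupled importer of dicarboxylates (chr2:165405028-165473230, minus strand), had 10 UMIs (40.4 CPM) against 49 (9.67 CPM) in the library labelled shBicd2 and 46 (107 CPM) against 37 (8.55 CPM) in the library labelled scramble. Its ratios were 4.18 (1.89 to 8.35) and 12.5 (7.95 to 19.9), and the log2 change was 3.08 ± 0.34 (edgeR, adjusted p = 3.3e-16). Slco1b2, which takes up bile acids and drugs from blood, stood at 88.9 against 43.4 CPM (shBicd2) and 384 against 89.2 CPM (scramble), a log2 change of 1.77 ± 0.22 (edgeR, adjusted p = 3.25e-13). Pericentral levels of both carriers thus exceeded remaining levels in each library. Slc43a1, an exporter and importer of neutral amino acids, rose by 1.48 ± 0.28, and Abcc2, which pumps conjugates into bile, by 1.03 ± 0.21.

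Of 22 tested genes on the list of other pericentral genes, 9 were called higher and 0 lower, beside 1.25% and 0.702% of all tested genes. The list had a median log2 change of 1.06, beside -0.07 over all tested genes. Its members included Prodh, the proline oxidase, at 68.7 against 40.7 CPM (shBicd2) and 67.5 against 17.1 CPM (scramble), a change of 1.43 ± 0.30. Aldh1a1, a retinal dehydrogenase, changed by 1.42 ± 0.34, and Gulo, the last enzyme of vitamin C synthesis, by 1.22 ± 0.34. The glutathione transferases Gsta3 and Gstm1 rose by 1.04 ± 0.27 and 0.95 ± 0.25, and Mgst1 by 0.61 ± 0.18. The gene lists were drawn up with earlier results of these data known, so their counts describe and do not test the lists.

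Cytochrome P450 genes of the pericentral list were called higher in 6 of 11 cases and lower in 0, beside 1.25% and 0.702% of all tested genes. Their median log2 change was 1.16. Cyp2e1 had 75 UMIs (303 CPM) against 921 (182 CPM) in the library labelled shBicd2, and 207 (482 CPM) against 993 (229 CPM) in the library labelled scramble. These gave ratios of 1.67 (1.30 to 2.11) and 2.10 (1.80 to 2.44) and a log2 change of 0.95 ± 0.19 (edgeR, adjusted p = 8.0e-05). Cyp27a1, which starts the acidic route of bile acid synthesis, stood at 307 against 149.8 CPM and 538 against 326 CPM, a change of 0.89 ± 0.19. Cyp3a11, a major drug-oxidising enzyme, changed by 1.22 ± 0.22, and Cyp2a5, a coumarin hydroxylase, by 2.44 ± 0.48. Cyp2e1, Cyp27a1 and Cyp3a11 were thus enriched by smaller factors than Oat or Slc13a3. Cyp2a5 lay between Oat and Slc13a3, and no difference in size was tested. Cyp1a2 (1.16 ± 0.40, adjusted p = 0.136) and Cyp2c29 (0.66 ± 0.26, adjusted p = 0.238) were not called by edgeR, and reads of the Cyp2c genes may be shared among close paralogs. DESeq2's Wald test called 2 genes of the P450 list and 2 of the list of other pericentral genes, and edgeR called 2 and 4 when periportal barcodes were left out of the remaining ones.

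Transcriptional regulators of the pericentral zone were sparse. Tbx3, a T-box repressor and Wnt target, had 5 UMIs (20.2 CPM) against 65 (12.8 CPM), a ratio of 1.57 (0.495 to 3.87), in the library labelled shBicd2, and 28 (65.2 CPM) against 55 (12.7 CPM), a ratio of 5.13 (3.13 to 8.22), in the library labelled scramble. Its change of 1.84 ± 0.38 (edgeR, adjusted p = 0.000202) therefore rests on the library labelled scramble, and with remaining barcodes matched on depth the adjusted p was 0.055. It was the only called gene of 7 tested Wnt targets outside the rule, beside 1.95% of all tested genes called. Nr1i3, the constitutive androstane receptor that turns on drug-metabolising P450 genes, stood at 32.3 against 12.6 CPM and 44.2 against 12.0 CPM, a change of 1.70 ± 0.41. Ahr, the aryl hydrocarbon receptor, changed by 0.90 ± 0.20.

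**Figure D2:**
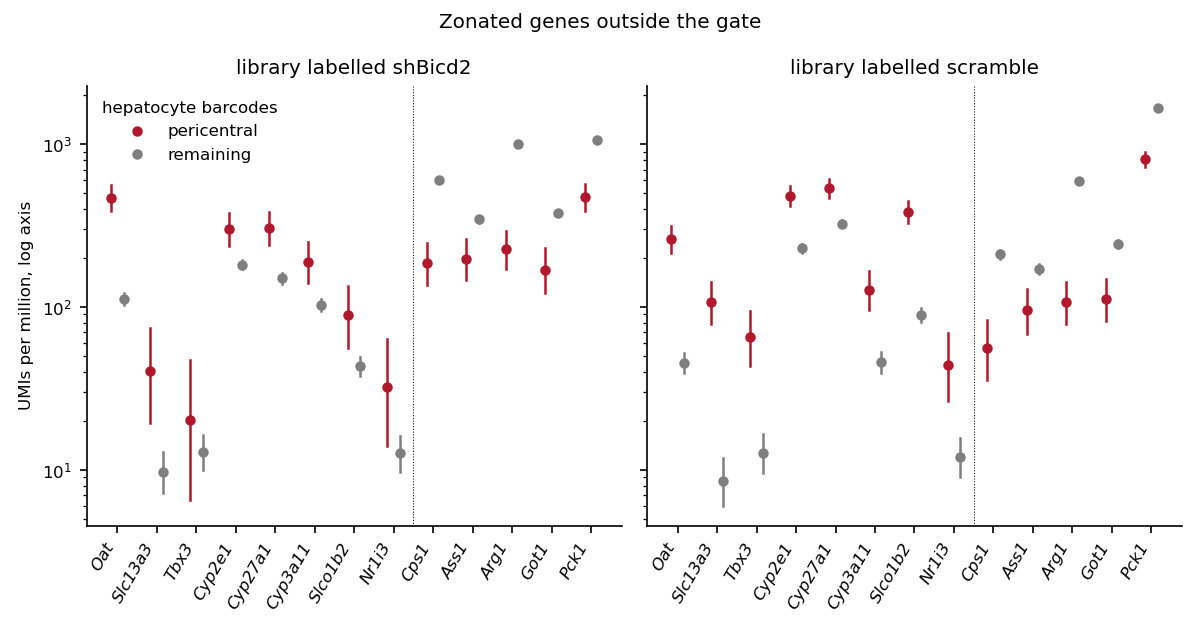
Points show CPM on a log axis in pericentral (red) and remaining (grey) hepatocyte barcodes of each library, with bars as exact 95% Poisson intervals. Genes left of the dotted line stood higher in pericentral barcodes and those right of it lower, with overlapping intervals for Tbx3 and Nr1i3 in the library labelled shBicd2.

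Arg1 and Cps1 of the urea cycle and Pck1 of gluconeogenesis were lower in pericentral barcodes. Arg1 (chr10:24915221-24927484) had 56 UMIs (226 CPM) against 5060 (999 CPM) in the library labelled shBicd2, and 46 (107 CPM) against 2573 (594 CPM) in the library labelled scramble. Its ratios were 0.227 (0.171 to 0.295) and 0.180 (0.132 to 0.241), a log2 change of -2.26 ± 0.21 (edgeR, adjusted p = 1.25e-23). Cps1, which fixes ammonia as carbamoyl phosphate, stood at 186 against 599.5 CPM and 55.8 against 211 CPM, a change of -1.73 ± 0.22. Pck1, the committed enzyme of gluconeogenesis, stood at 473 against 1063 CPM and 807 against 1681 CPM, a change of -1.08 ± 0.18. Both urea enzymes and Pck1 were thus lower in each library. Of 8 tested urea cycle genes 3 were called lower, beside 0.702% of all tested genes. The third was Ass1 (-0.78 ± 0.21, edgeR adjusted p = 0.0169, or 0.255 with remaining barcodes matched on depth). Asl had a change of -0.15 and Otc one of -0.40.

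Among 22 tested periportal genes outside the rule, 6 were called lower and 0 higher, beside 0.702% and 1.25% of all tested genes. Their median change was -0.47. Slc7a2, a cationic amino acid importer that can bring arginine into the cell, stood at 291 against 557 CPM and 265 against 433 CPM, a change of -0.78 ± 0.19. Got1, the cytosolic aspartate aminotransferase, was counted with the glutamate and glutamine genes, and stood at 169.8 against 379.8 CPM and 112 against 244 CPM, a change of -1.11 ± 0.21 (edgeR, adjusted p = 4.4e-05). Of 15 tested genes on that list 2 rose, Oat and Prodh, and 1 fell, Got1, beside 1.25% and 0.702% of all tested genes. Glud1, glutamate dehydrogenase, at 0.22 ± 0.22, and Slc38a3, a glutamine carrier, at -0.25 ± 0.18, were not called. The changes around glutamate were therefore seen in single enzymes and not across the list.

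Genes of other roles were also among the 15 with the largest fall. Nrg4, which encodes the secreted factor neuregulin 4, had 44 UMIs (178 CPM) against 4710 (929.7 CPM) in the library labelled shBicd2 and 70 (163 CPM) against 3505 (809.7 CPM) in the library labelled scramble. Its ratios of 0.191 and 0.201 were close to each other, and the log2 change was -2.31 ± 0.21 (edgeR, adjusted p = 3e-25). Sdsl, a paralog of the selecting gene Sds that breaks down serine and threonine, stood at 76.8 against 289 CPM and 27.9 against 184 CPM, a change of -2.24 ± 0.27. Ifi203, an interferon-induced gene of the DNA-sensing PYHIN family, had 1 UMI against 182 and 1 against 255, a change of -4.06 ± 0.63, and close paralogs may share its reads.

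Others on that list were at or near 0. Cd300lf, a receptor known from myeloid cells, had 0 UMIs in pericentral barcodes of both libraries against 95 and 63 UMIs in remaining barcodes, so it was at least 1.55-fold (shBicd2) and 2.08-fold (scramble) lower against a limit of 3 counts per population. Apoa4, an apolipoprotein, had 5 UMIs against 310 and 0 against 108, the second at least 3.57-fold lower. Kcnn2, a potassium channel, had 0 against 120 UMIs and 3 against 140 UMIs. Rasgef1b, a Ras exchange factor, fell by 2.19 ± 0.33 on the log2 scale, and the phosphofructokinase Pfkp fell by 2.10 ± 0.54. Sertad1 stood at the threshold with an edgeR adjusted p of 0.04999. The remaining names among the 15 were Nipal1, Proser2, Rgs2, Hmcn2 and Zeb2, with changes from -3.51 to -2.25. With remaining barcodes matched on depth, Pfkp (-1.34, edgeR adjusted p = 0.448), Hmcn2 (-1.42, 0.489), Zeb2 (-1.93, 0.148) and Cd300lf (0.0963) were no longer called, and Ifi203 stood at -3.29.

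Levels followed the number of Glul UMIs when the 2061 (shBicd2) and 1931 (scramble) hepatocyte barcodes with at least 1000 UMIs were thinned to that number, which removes differences in depth. Barcodes with 0, 1, 2 and at least 3 Glul UMIs numbered 1859, 154, 33 and 15 in the library labelled shBicd2 and 1579, 225, 60 and 67 in the library labelled scramble. Oat stood at 106, 221, 333 and 733 CPM over these classes in the library labelled shBicd2 and at 43.1, 120.0, 217 and 493 CPM in the library labelled scramble. Arg1 stood at 966, 812, 485 and 333 CPM and at 661, 462, 300.0 and 29.9 CPM. Both genes were thus ordered along the Glul classes in both libraries, in opposite directions. Slc1a2 was ordered in the library labelled scramble, at 25.3, 213, 433 and 910.4 CPM, but stood at 30.7, 143, 60.6 and 133 CPM in the library labelled shBicd2, where the last class held 2 Slc1a2 UMIs.

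**Figure D3:**
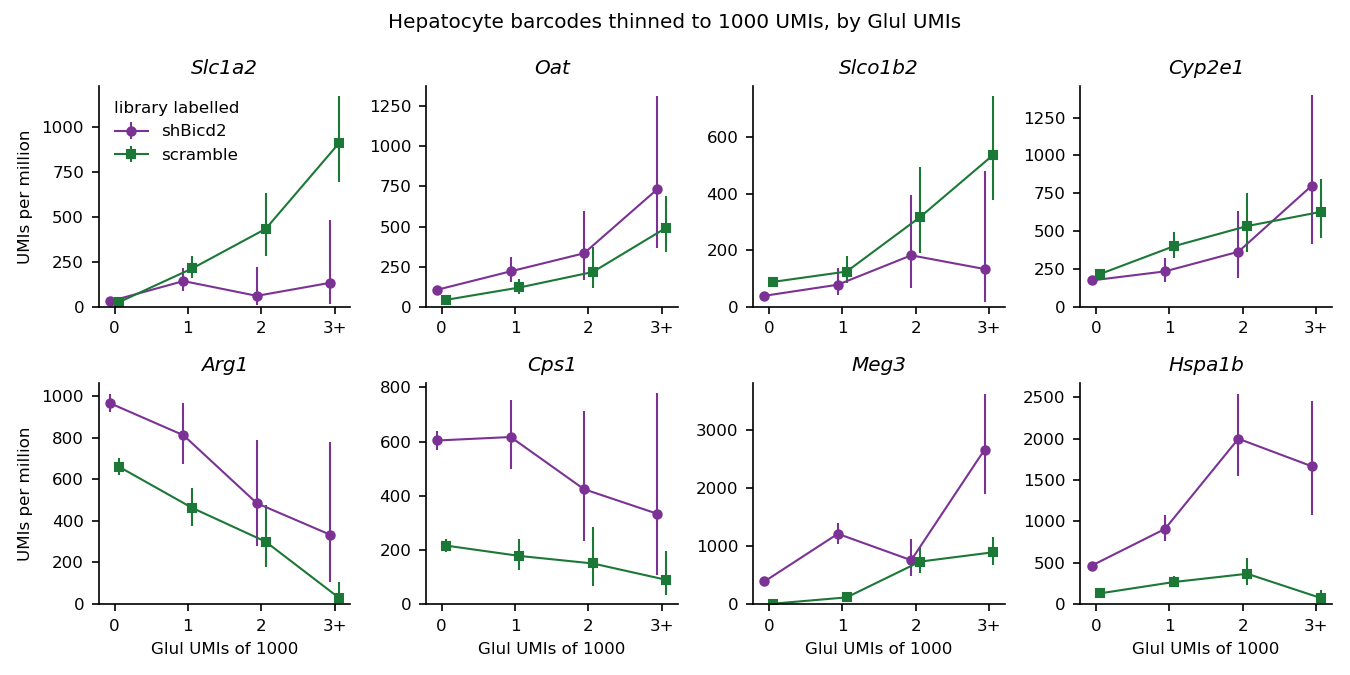
CPM of 8 genes by the number of Glul UMIs in hepatocyte barcodes thinned to 1000 UMIs, for the libraries labelled shBicd2 (purple) and scramble (green), with exact 95% Poisson intervals. Oat and Cyp2e1 are higher and Arg1 lower at more Glul UMIs in both libraries, while Hspa1b is higher at 2 Glul UMIs than at 0 and is low again at 3 or more in the library labelled scramble.

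The highest of all changes belonged to Meg3, a long noncoding RNA of the maternally expressed side of the imprinted Dlk1-Dio3 locus (chr12:109541001-109571726, plus strand). It had 646 UMIs (2611 CPM) against 1938 (383 CPM) in the library labelled shBicd2 and 211 (491 CPM) against 93 (21.5 CPM) in the library labelled scramble. The ratios were 6.83 (6.23 to 7.46) and 22.9 (17.8 to 29.5), and the log2 change was 3.54 ± 0.20 (edgeR, adjusted p = 4.46e-52). Rian, the next transcript of that locus (chr12:109603940-109661716), changed by 3.30 ± 0.23, with 724 against 99.3 CPM and 72.1 against 3.00 CPM. Mirg (chr12:109729764-109749460) changed by 2.76 ± 0.29, with 291 against 41.7 CPM and 11.6 against 3.23 CPM. All 3 transcripts of the cluster were therefore higher in pericentral barcodes of both libraries.

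The Meg3 signal sat in few barcodes. Meg3 was found in 22 pericentral barcodes of the library labelled shBicd2 and 31 of the library labelled scramble, and 1 barcode held 26.8% and 21.8% of its pericentral UMIs. At least 3 UMIs of Meg3, Rian and Mirg together were present in 16 of 92 (17.4%) and 17 of 199 (8.54%) pericentral barcodes, against 77 of 2746 (2.80%) and 9 of 2402 (0.375%) remaining ones. Pericentral barcodes thus held 17.2% and 65.4% of all hepatocyte barcodes with such a signal. Within the pericentral barcodes of the library labelled shBicd2, Meg3 stood at 143 CPM in those with EGFP and 5463 CPM in those without.

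Mup17, of the major urinary protein family, stood at 1031 against 521 CPM and 565 against 146 CPM, a log2 change of 1.496 ± 0.181, and its reads cannot be told from near-identical Mup copies. Plin4, a lipid droplet coat protein, changed by 1.37 ± 0.23, with 226 against 103 CPM and 81.4 against 27.0 CPM. Among the other genes with the largest rise, Snhg11, a noncoding small nucleolar RNA host gene, changed by 1.67 ± 0.28, the P450 gene Cyp2c67 by 1.64 ± 0.33, the stress-responsive Nupr1 by 1.54 ± 0.35 and the adhesion receptor Adgra3 by 1.47 ± 0.38. With remaining barcodes matched on depth Nupr1 (0.76, edgeR adjusted p = 0.419) and Adgra3 (1.29, adjusted p = 0.099) were no longer called, and Cyp2c67 stood at 2.70. General hepatocyte identity genes were called in 1 of 17 cases, beside 1.95% of all tested genes. The called gene was Alb, at -0.59 ± 0.18 (edgeR adjusted p = 0.0482, or 0.851 at matched depth), while Ttr (-0.03 ± 0.18) and Hnf4a (-0.02 ± 0.21) were not called.

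Several interferon and chemokine genes were also higher in pericentral barcodes. Cxcl9, an interferon-gamma-induced T cell chemokine, had 656 UMIs (2651 CPM) against 1002 CPM in the library labelled shBicd2 and 918 UMIs (2136 CPM) against 996 CPM in the library labelled scramble. Its ratios were 2.65 and 2.14 and the log2 change 1.29 ± 0.18 (edgeR, adjusted p = 3.1e-10). Cxcl10, which acts through the same receptor, stood at 3225 against 1631 CPM and 3997 against 1898 CPM, a change of 1.07. The guanylate-binding protein gene Gbp6 changed by 1.31, and Irf1, the interferon-induced transcription factor, by 0.83 ± 0.18. Of 21 tested interferon-gamma response genes 6 were called higher and 0 lower (median 0.36). Of 20 type I interferon response genes it was likewise 6 and 0 (median 0.41), Ifit3 among them at 1.26 ± 0.23. Over all tested genes 1.25% were called higher and 0.702% lower.

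Heat shock genes were called higher in 7 of 11 cases, beside 1.25% of all tested genes, with a median log2 change of 1.03. Taken per library, the median log2 ratio was 1.485 (shBicd2) and 0.396 (scramble), and 7 of the 11 had ratios above 1 in both. The size of the median change therefore rests more on the shBicd2 library. Hspb1, a small chaperone (chr5:135887919-135889563, plus strand), had 84 UMIs (339.5 CPM) against 310 (61.2 CPM) in the library labelled shBicd2 and 13 (30.3 CPM) against 42 (9.70 CPM) in the library labelled scramble, a change of 2.33 ± 0.25 (edgeR, adjusted p = 2.59e-17). Hspa1b, an inducible Hsp70, stood at 2094 against 613 CPM and 382 against 202 CPM, a change of 1.42 ± 0.18, and its near-identical copy Hspa1a may share reads. Hsp90aa1, an inducible Hsp90, stood at 2179 against 778 CPM and 319 against 243 CPM, a change of 1.03 ± 0.18. Few barcodes carried these values, with Hspb1 found in 14 of 92 (shBicd2) and 7 of 199 (scramble) pericentral barcodes, of which 1 held 5 of the 13 UMIs in the library labelled scramble, and Hspa1b in 34 and 27. Hspa1a had ratios of 2.79 (2.25 to 3.42) in the library labelled shBicd2 and 0.576 (0.271 to 1.08) in the library labelled scramble. It was nevertheless called higher (edgeR, adjusted p = 0.00773), so that call rests on the library labelled shBicd2. Txnip, a thioredoxin-binding regulator of glucose uptake, stood at 546 against 115 CPM and 182 against 68.8 CPM, a change of 1.90 ± 0.20, and Klf10, a zinc finger factor, changed by 1.77 ± 0.20.

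The promoters of the leading heat shock genes are shown because heat shock factor binding elements are known from this gene family. In the RefSeq windows of 300 bases from 250 before to 50 after the start (GRCm38.p6), the letters GAANNTTC, read on both strands, were found in 7 of 8 heat shock list genes that had a window, of 11 on the list. They were found in 1753 of 20267 genes of the files (8.65%), and in 3 of 14 of the 15 highest genes that had a window, Hspb1, Hspa1b and Adgra3. CTTTGAT, a TCF/LEF motif of Wnt target genes, was found in 0 of those 14 windows and in 3.92% of all genes. Capitals mark GAANNTTC in Hspb1 (chr5:135887669-135887968, plus strand), which has 2 matches, and Hspa1b (chr17:34959189-34959488, minus strand), which has 1.
Hspb1: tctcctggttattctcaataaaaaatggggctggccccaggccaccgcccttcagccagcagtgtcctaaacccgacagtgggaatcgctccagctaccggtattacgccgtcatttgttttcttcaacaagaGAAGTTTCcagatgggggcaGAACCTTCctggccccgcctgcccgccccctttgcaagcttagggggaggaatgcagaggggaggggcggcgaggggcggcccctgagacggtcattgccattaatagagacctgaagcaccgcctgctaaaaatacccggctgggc
Hspa1b: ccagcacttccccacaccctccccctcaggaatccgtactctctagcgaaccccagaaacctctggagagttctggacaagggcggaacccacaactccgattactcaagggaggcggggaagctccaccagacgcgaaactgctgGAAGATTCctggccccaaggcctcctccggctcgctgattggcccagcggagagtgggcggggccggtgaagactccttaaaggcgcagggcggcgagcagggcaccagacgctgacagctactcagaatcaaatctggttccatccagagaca
The matches describe letters in these windows and no binding was measured.

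The stress and interferon changes depended on which selecting gene chose the barcode. In barcodes chosen on Slc1a2, Lgr5, Axin2 and Rhbg without Glul, 0 of 11 heat shock genes were called higher and the median was -0.10, and the interferon-gamma list had 0 higher and 1 lower. With the same choice the pericentral list had 9 genes called higher and the P450 list 5, so calls on these lists did not need Glul in the choice. Without EGFP-bearing barcodes in either population, 1 heat shock gene, 2 interferon-gamma response genes and 0 type I interferon genes were called, while 6 P450 and 8 pericentral genes were. EGFP-bearing barcodes made up a larger share of the pericentral than of the remaining barcodes in the library labelled shBicd2, as given above, and the part of EGFP in these changes was not tested beyond that exclusion.

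To describe this division, the pericentral barcodes were separated by whether they held any Slc1a2 UMI, a step chosen after the data were seen. Those without numbered 47 (shBicd2) and 79 (scramble), those with 45 and 120. Their median UMIs were 2898 against 1989 and 2160 against 1739. EGFP was found in 57.4% against 26.7% and in 12.7% against 2.50% of them. Barcodes without Slc1a2 were thus deeper and carried EGFP more often in both libraries, and the values of the 2 kinds set beside each other below are descriptions with no test.

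Pericentral genes stood higher in the barcodes with Slc1a2. Oat stood at 206 CPM without and 786 CPM with Slc1a2 in the library labelled shBicd2, and at 161 and 355 CPM in the library labelled scramble, against 112 and 45.2 CPM in remaining barcodes. Cyp2e1 stood at 169 and 465 CPM (shBicd2) and 256 and 696 CPM (scramble), against 182 and 229 CPM in remaining barcodes. Cyp2e1 of the barcodes without Slc1a2 was therefore near the level of the remaining barcodes, while Arg1 was low in both kinds, at 265 and 179 CPM (shBicd2) and 151 and 63.7 CPM (scramble). Slc13a3 stood at 7.35 and 80.4 CPM (shBicd2) and 33.1 and 177 CPM (scramble). Summed over the pericentral list, barcodes without Slc1a2 held 0.419 (0.353 to 0.495) times the level of those with it in the library labelled shBicd2. Their sum there was 1559 CPM against 1602 CPM in remaining barcodes, so on this list they were not above the remaining level. In the library labelled scramble the ratio was 0.5425 (0.476 to 0.618), with 1666 CPM without Slc1a2 against 1264 CPM in remaining barcodes. The list of other periportal genes was also lower without Slc1a2, at a summed 5662 against 9451 CPM (shBicd2) and 4723 against 5559 CPM (scramble), with 10920 and 8326 CPM in remaining barcodes.

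Stress and interferon genes went the other way. Cxcl10 stood at 5501 CPM without and 447 CPM with Slc1a2, 12.3-fold apart (9.24 to 16.7), in the library labelled shBicd2. It stood at 6782 and 1297 CPM in the library labelled scramble, a ratio of 5.23 (4.60 to 5.96). Hspa1b stood at 3052 and 920.0 CPM (shBicd2) and at 762 and 13.7 CPM (scramble), a ratio of 55.8 (18.8 to 274) in the library labelled scramble. Txnip stood at 860.4 and 161 CPM and at 341 and 27.3 CPM. Over the whole heat shock list the ratios without over with Slc1a2 were 2.92 (2.61 to 3.27) and 3.13 (2.64 to 3.74), so both libraries showed the same order. Over the list of immediate early genes they were of similar size, at 2.94 (2.73 to 3.17) and 2.99 (2.79 to 3.21). That list summed to 23893 and 8120 CPM (shBicd2) and 14861 and 4972 CPM (scramble), against 13049 and 9504 CPM in remaining barcodes. Set against remaining barcodes by edgeR, those with Slc1a2 had a median log2 change of -0.04 on the heat shock list. On the interferon-gamma list it was -0.37. Barcodes without Slc1a2 had medians of 1.73 and 0.74 on these lists. On the P450 list the median was 0.74 without Slc1a2 and 1.24 with it. These medians describe the lists and do not test them.

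**Figure D4:**
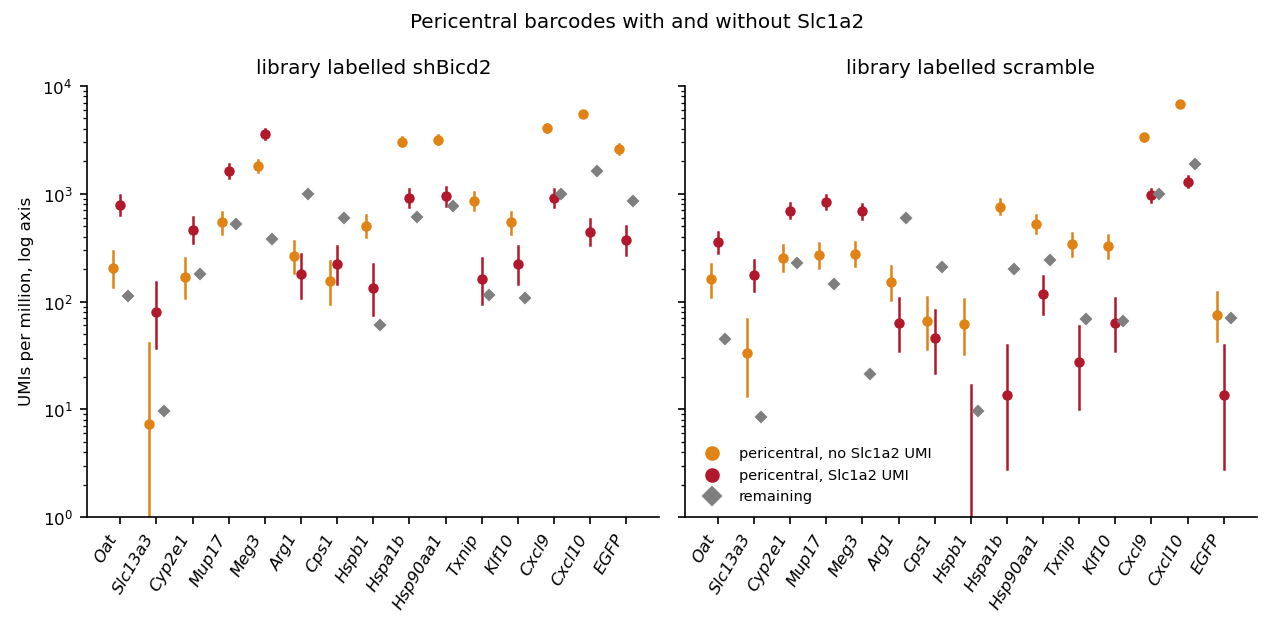
CPM on a log axis in pericentral barcodes without (orange) and with (red) a Slc1a2 UMI and in remaining barcodes (grey diamonds), per library, with exact 95% Poisson intervals for the pericentral kinds; Hspb1 with Slc1a2 in the library labelled scramble is 0 and only its upper limit is drawn. Oat, Slc13a3, Cyp2e1, Mup17 and Meg3 are higher with Slc1a2, and Hspa1b, Txnip, Cxcl9 and Cxcl10 higher without it, in both libraries.

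Pericentral barcodes made up a smaller share of hepatocyte barcodes in the library labelled shBicd2, 3.24% (exact binomial interval 2.62 to 3.96) against 7.65% (6.66 to 8.74) in the library labelled scramble, 0.424 times as large (0.327 to 0.545). At 1000 UMIs per barcode, a depth that 777 and 670 of them did not reach, the share was 25 of 2061 (1.21%) against 97 of 1931 (5.02%), a ratio of 0.242 (0.149 to 0.378). In barcodes with at least 2 Ptprc UMIs, which should not be pericentral, the same count was met by 0 of 37, which allows up to 8.11%, and by 2 of 58 (3.45%), at median depths of 863 and 1016 UMIs. Periportal barcodes, chosen by the mirror of the rule, also made up a smaller share in the library labelled shBicd2. It was 21.95% against 29.18% in the library labelled scramble, 0.752 times as large (0.6755 to 0.8375). A smaller share was therefore not particular to pericentral barcodes. Since each group is a single library, no test over animals was possible. Fewer pericentral cells and less Glul RNA per cell cannot be told apart in the pericentral share.

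Between the pericentral barcodes of the libraries, 3476 genes had at least 30 UMIs over both. Of these 150 (4.32%) were higher in the library labelled shBicd2 and 118 (3.39%) lower, counted where the whole counting interval lay beyond 1.5-fold. In remaining barcodes the shares were 9.13% and 3.69% of 10577 genes, which hold far more UMIs. EGFP had the highest pericentral ratio, with 394 UMIs (1593 CPM) against 19 (44.2 CPM), 36.0 (22.8 to 60.5), and 12.0 in remaining barcodes. Pdk4, a brake on glucose oxidation, had 24.3 (6.13 to 211), from 28 against 2 UMIs. In remaining barcodes it had 80.3 (14.1 to 3206), from 94 UMIs against 1, so both ratios rest on scramble counts below 3. Hmgcs1, an early enzyme of cholesterol synthesis, had 13.9 and 4.69. These genes were thus higher in both populations. Hspa1a, at 18.2 (9.54 to 39.2) and 3.76, and Hspb1, at 11.2 and 6.31, were as well. The other high ratios were those of Mirg (25.01), Arrdc4 (10.7), Rian (10.0) and Fdps (10.3), with 12.9, 1.83, 33.1 and 5.51 in remaining barcodes. Single pericentral barcodes of the library labelled shBicd2 held 93 of 394 EGFP UMIs, 32 of 105 Hspa1a UMIs and 22 of 72 Mirg UMIs.

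Low ratios were found for Trim12c (0.134), Trim34a (0.151) and Ifi44 (0.160), all interferon-induced, with 0.295, 0.310 and 0.208 in remaining barcodes. Cyp2c70, a bile acid hydroxylase, had 0.171 and the semaphorin co-receptor Nrp1 0.178, with 0.137 and 0.120 in remaining barcodes. Bub3, a mitotic checkpoint gene, had 3 against 41 UMIs, a ratio of 0.127, and 0.952 in remaining barcodes. Elf1, Sgk1 and Mff had ratios of 0.193 to 0.199, with 0.723, 0.364 and 0.8004 in remaining barcodes. Hsph1, an Hsp110 chaperone, had a ratio of 9.49 in pericentral and 0.904 in remaining barcodes, but 1 barcode held 31 of its 71 pericentral UMIs in the library labelled shBicd2. Apart from Bub3, Hsph1, Elf1 and Mff, the genes named here for their ratios in pericentral barcodes were therefore also apart by over 1.5-fold in remaining barcodes.

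**Figure D5:**
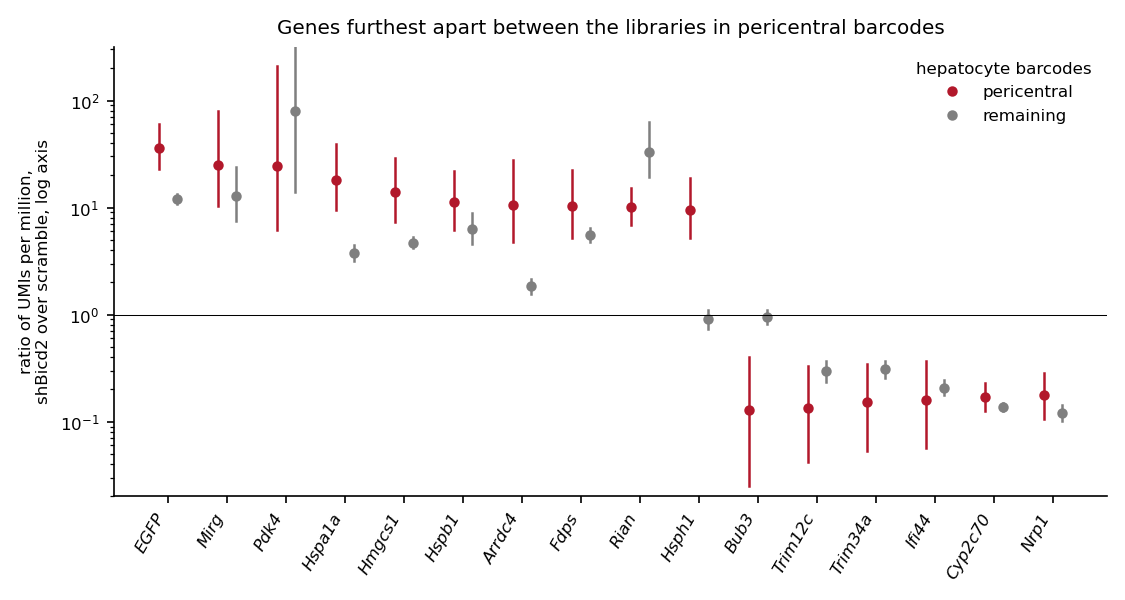
Ratios of CPM, library labelled shBicd2 over library labelled scramble, on a log axis with 95% counting intervals, for the 10 highest and 6 lowest genes of pericentral barcodes (red), with the same ratio in remaining barcodes (grey); the upper bound of Pdk4 in remaining barcodes lies beyond the axis. Hsph1 and Bub3 are far from 1 in pericentral but not in remaining barcodes.

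Over all compared genes 4.32% were higher in pericentral barcodes of the library labelled shBicd2 and 3.39% lower. By list, 9 of 11 heat shock genes were higher there, with a median log2 ratio of 2.45, against 0.72 in remaining barcodes. For cholesterol synthesis it was 8 of 9 compared genes (1.78 against 1.14), and for immediate early genes 8 of 12 (0.93 against 0.46). Of 19 compared type I interferon response genes 9 were lower and 0 higher (median -1.14, against -0.81 in remaining barcodes). None of 6 compared P450 genes and 13 compared pericentral genes was past the limit in either direction, with medians of -0.07 and -0.02. Urea cycle genes were higher in 2 of 7 cases (median 1.08, against 0.75 in remaining barcodes), and periportal genes in 2 of 12 (0.76 against 0.45). Single pericentral genes had wide or opposite ratios, with Oat at 1.80 (1.38 to 2.35), Slc13a3 at 0.378 (0.170 to 0.759) and Slco1b2 at 0.232. EGFP-bearing barcodes were unequally shared between the libraries, as given above. Without them the pericentral log2 ratio was 3.55 for Hspa1a (4.12 with them), 2.38 for Hspb1 (3.44) and 0.30 for Hsph1 (3.20).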

How the data were processed

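Each deposited matrix gives raw UMI counts for every gene in every barcode. Cell Ranger 6.0.1, Seurat 4.0.3 and build mm10 are named per the submitters' processing notes, while the header of the deposited count matrices names Cell Ranger 6.1.2. The labels do not say how cells were isolated. The matrices hold 32287 features, and 3 barcode sequences occur in both libraries, 0 of them pericentral in both.

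Raw counts were summed per library and population. The 13 genes of the selection rule were removed from sums, totals and test, and genes with at least 20 UMIs over the 4 sums were tested with edgeR 4.0.16 (R 4.3.3), TMM scaling, a quasi-likelihood test with library as block, and Benjamini-Hochberg adjustment over all 11389 genes. On simulated counts for 11248 genes, the same test called 3 of 11050 unchanged genes, 24 of 50 raised 2-fold, 38 of 50 raised 4-fold, 9 of 50 at 0.5 times and 22 of 50 at 0.25 times their level. These counts were drawn gene by gene with the spread that the test had fitted. They therefore cannot show how the test behaves where single barcodes hold many of a gene's UMIs or where mice differ. DESeq2 1.42.0 was an alternative. Intervals at 95% are exact Poisson for CPM, conditional binomial for ratios and Clopper-Pearson for shares, from scipy 1.17.1 with numpy 2.4.6, pandas 2.3.3 and Python 3.11.15. The limit a count of 0 allows is 3 counts. Between the libraries a gene was counted when its whole interval lay beyond 1.5-fold, with at least 30 UMIs over both. Doublets were kept in the main comparison and removed by Scrublet scores (scanpy 1.11.5) in an alternative, at 0.8% per 1000 barcodes, which took 2 and 3 pericentral barcodes.

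The members, gene lists and tests were chosen with earlier results of these data known. Genes are named where they were among the 15 highest or lowest called changes with at least 50 UMIs per library and intervals on the same side in both, leaving out mitochondrial, ribosomal, hemoglobin and clone-named genes, or among the 10 highest and lowest ratios between libraries, or on a list. Mx1 and Mx2 were not analysed here, and 1 gene that the rule names is not reported here. The division by Slc1a2, its fits, and the fit free of Meg3, Rian and Mirg were chosen after seeing the data. Both libraries carry replicate number 1, and the block pairs the populations of 1 library, which share mice, cell preparation and sequencing.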

Additional observations from a re-analysis of the deposited data

Results flagged for a closer look

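For 5 listed genes the counting intervals of the pericentral over remaining ratio lay wholly above 1 in the library labelled shBicd2 and wholly below 1 in the library labelled scramble. The difference between the libraries was not tested. Btg2, an immediate early antiproliferative gene, had ratios of 1.23 (shBicd2) and 0.700 (scramble). Bnip3, a hypoxia-induced gene of mitochondrial turnover, had 1.27 and 0.763. The secreted Fgl1 had 1.14 and 0.865, Cebpb, a transcription factor of the acute phase response, had 1.17 and 0.912, and the serum amyloid gene Saa2 had 1.11 and 0.969. Over all 11389 tested genes, 35 (0.307%) had intervals on opposite sides in the libraries and 337 had them on the same side.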

How the results depend on the processing

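The counts of 142 higher and 80 lower genes stayed within 1.5 times under other scaling, other filters on low counts, a 5% mitochondrial limit, doublet removal and a limit on markers of other cells, which gave 104 to 177 higher and 68 to 78 lower genes. DESeq2's Wald test called 37 and 14 (201 and 84 at an unadjusted p under 0.05). Without the replicate block edgeR called 0 and 0, with 153 and 223 at an unadjusted p under 0.05 and a smallest adjusted p of 0.314, since the difference between the libraries then counts as spread. Fewer lower genes were called with remaining barcodes matched on depth (50), without periportal ones (53), or free of Meg3, Rian and Mirg (52, an alternative added after seeing the data). At least 5 selecting UMIs gave 60 and 39, Glul alone 89 and 34, and barcodes without EGFP 78 higher. The other 4 selecting genes gave 242 lower, and pericentral barcodes with Slc1a2, also added later, 81 higher and 259 lower. Under the 4-gene choice the log2 changes of Txnip (-0.54), Klf10 (-0.019) and Hspa1b (-0.31) turned negative, as did Txnip (-0.46) and Hspa1b (-0.73) in barcodes with Slc1a2. In these fits the members themselves changed, as did the threshold under the 4-gene choice (at least 1 UMI), and no other cause was tested. Between the libraries, TMM factors gave 78 lower genes, against 118 without. The pericentral share was 1.21% (shBicd2) and 5.02% (scramble) at 1000 UMIs, a ratio of 0.242, and 1.48% and 4.58% with at least 5 selecting UMIs, a ratio of 0.324. With at least 2 it was 4.69% and 10.8%. Leaving out 1 library leaves the ratio of the other, with no test.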

Other observations

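Several lists had no gene called in pericentral against remaining barcodes, where 1.95% of all tested genes were called. None of 19 tested hypoxia and glycolysis genes was called by edgeR (median log2 change -0.22). Their median was -0.89 in barcodes chosen on the 4 other selecting genes, -1.18 in pericentral barcodes with Slc1a2 and 0.18 in those without. Nor was any of 8 genes of heme synthesis (0.22), 9 of the NRF2 and glutathione defence (0.21), 12 of cholesterol synthesis (-0.36) or 13 encoded by mitochondrial DNA (-0.26) called, beside a median of -0.07 over all tested genes. Vegfa, an angiogenic factor induced by low oxygen, stood at 1714 against 1843 CPM in the library labelled shBicd2 and 1210 against 1695 CPM in the library labelled scramble, a change of -0.26 ± 0.18. Alas1, the first enzyme of heme synthesis, had ratios of 0.839 (0.637 to 1.09) and 1.70 (1.497 to 1.93). Acute phase genes had 2 of 20 called higher, Saa3 and Orm2, while Saa1, the main serum amyloid, was not called (0.15 ± 0.19). Of 6 nuclear noncoding RNAs 3 were called higher, Meg3, Rian and Mirg, while Neat1 (-0.45 ± 0.20) and Malat1 (0.09 ± 0.19) were not.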
